A study of Rattus norvegicus with 16 samples.

Results

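Gene expression in knee cartilage of osteoarthritic rats treated with a coacervate, cells and a drug was compared with that in cartilage of untreated osteoarthritic rats. The comparison set every library of both groups against each other, 4 against 4, or 8 of the 16 libraries of the series. All 16 libraries entered the fit and its estimate of spread. Of 23552 genes in the table, 14337 passed a filter on low values and were tested. The other groups were healthy cartilage and osteoarthritic cartilage of rats given hyaluronic acid (HA), cells and a drug, with 4 libraries each. All rats were 10 weeks old per the labels. Library names give the untreated osteoarthritic group as PBS, the coacervate group as CCD, the hyaluronic acid group as HCD and the healthy group as Sham. The labels name no strain, sex, model of disease, cell type, drug, dose, time after treatment or coacervate composition. Both treated groups carry cells and drug, and no group had the coacervate alone, so the parts of the treatment cannot be told apart. The labels do not say whether replicates were separate animals, so p-values measure the spread between these libraries, which may be technical.

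A coacervate is a dense liquid phase that separates from a solution of polymers and can hold cargo such as proteins, drugs or cells. In osteoarthritis the cartilage matrix of collagen and proteoglycan is degraded by proteases, while macrophages of the joint lining release chemokines that draw in more monocytes. Macrophages that take up lipid and debris express genes of lipid transport, Fc receptors and lysosomal enzymes. Lysosomes are acidic compartments in which proteases and other hydrolases break down what a cell has taken up. Whole tissue was sequenced, so fewer cells of a type and less RNA per cell cannot be told apart.

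The 8 libraries held 44497935 to 50725189 counts, and genes of cells other than chondrocytes were abundant in them. Col2a1, the main collagen of cartilage, had a median FPKM (the deposited length-scaled level) of 309, Comp 130, Prg4 188 and Acan 23.2 over the 8 libraries. The haemoglobin gene Hba-a1 had a median FPKM of 91700, the neutrophil gene S100a8 2400, the muscle actin Acta1 1000, the bone gene Bglap 301 and the B cell factor Pax5 9.75. On the first principal component, with 32.5% of the variance, osteoarthritic replicates 2 and 3 lay at 69.6 and 58.9 and the remaining 14 libraries at -32.3 to 12.7. Haemoglobin took 20.6% and 20% of their counts, against 12% and 9.57% in osteoarthritic replicates 1 and 4 and 12.1% to 15.6% in the coacervate group. Coacervate replicate 3 had the highest share of skeletal muscle counts, 2.74%. Log2 fold changes without osteoarthritic replicates 2 and 3 stand below beside the called genes and most gene lists.

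The comparison asks which transcripts differ in osteoarthritic cartilage after the coacervate treatment. The edgeR fit took all 16 libraries, so the HA and healthy libraries also entered the estimate of spread behind the p-values. In edgeR's quasi-likelihood test with Benjamini-Hochberg adjustment, 21 genes passed an adjusted p of 0.05, which is 0.146% of the genes tested. Of these, 18 were lower (0.126%) and 3 were higher (0.0209%) after coacervate treatment. The lower genes fell by 0.56 to 2.59 on the log2 scale, with a median of -0.97, while the median over all tested genes was -0.01. They included the chemokine gene Ccl7, the lipid carrier gene Apoe, the Fc receptor gene Fcgr2a and the lysosomal genes Ctsl and Npc2. The 3 higher genes were Adgrg1, Igfn1 and AABR07046707.1. Of the 21 genes, 8 lay in 6 of the 41 gene lists examined. The lists were chosen with earlier results of these data known, so shares of list members below describe these data and are not a test. The 4 values of a group did not overlap those of the other for 803 genes (5.6%), 449 of them lower (3.13%) and 354 higher (2.47%). At an unadjusted p under 0.05, 3131 genes (21.8%) passed.

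The calls lay close to the threshold: Metrnl had an adjusted p of 0.0421 and the other 20 genes shared 0.0497. At an adjusted p of 0.1, 168 genes passed, 112 of them lower and 56 higher. DESeq2 called 797 genes and limma on log2(FPKM + 1) called 0. The edgeR test on only the 8 libraries of both groups called 0, with a smallest adjusted p of 0.281. Without osteoarthritic replicates 2 and 3 the count was 3, Ccl7, Meis3 and Card14, all lower, the latter pair named after their values were seen. It was 2054 without osteoarthritic replicate 1, 1368 without osteoarthritic replicate 4, 27 without HA replicate 2 (26 lower, 1 higher), 7 without HA replicate 4 and 1 (Metrnl) without HA replicate 3, while leaving out any of the other osteoarthritic, coacervate or healthy libraries, or HA replicate 1, gave 0.

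**Figure D1:**
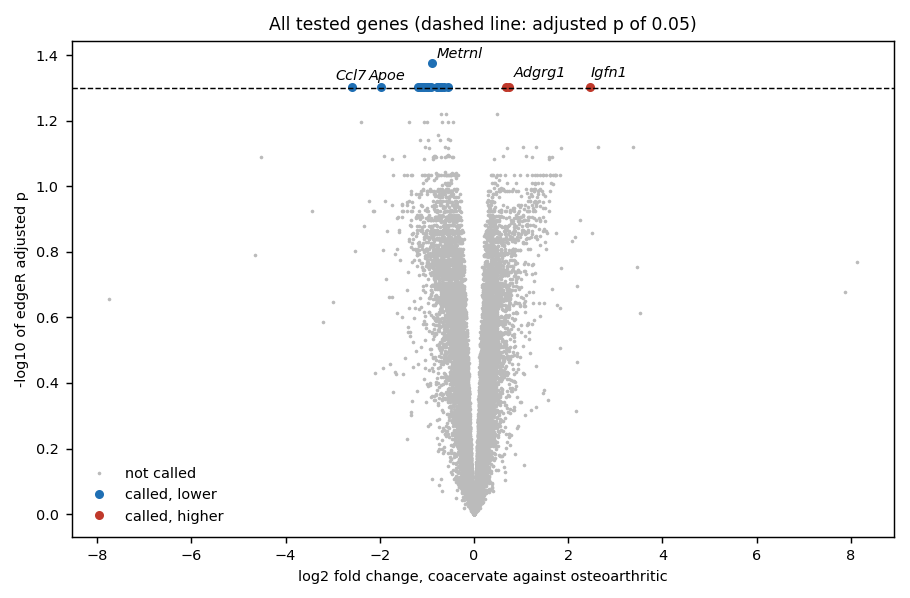
Each point is 1 of the 14337 tested genes, with its log2 fold change (coacervate against osteoarthritic) on the x axis and the negative log10 of its edgeR adjusted p on the y axis. The 18 lower and 3 higher genes that passed lie on or just above the dashed line at an adjusted p of 0.05, and Metrnl alone is clearly above it.

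Promoters of 4 of the 18 genes called lower, each with a lysosomal or membrane role, are shown. The letters CACGTG are the core of the element bound by lysosomal gene regulators of the TFEB family. Both called genes found to hold these letters are among the 4, so the 4 do not show how common the letters are. The windows of the called lysosomal genes Dpp7 and Ctbs, which are not shown, did not hold them. The sequences are from RefSeq on assembly GRCr8, matched by symbol, and cover the 250 bases before the annotated start, 5′ to 3′ on the gene's strand. Capitals mark CACGTG, which reads the same on both strands.
Slc31a2, chr5:80753368-80753617, plus strand: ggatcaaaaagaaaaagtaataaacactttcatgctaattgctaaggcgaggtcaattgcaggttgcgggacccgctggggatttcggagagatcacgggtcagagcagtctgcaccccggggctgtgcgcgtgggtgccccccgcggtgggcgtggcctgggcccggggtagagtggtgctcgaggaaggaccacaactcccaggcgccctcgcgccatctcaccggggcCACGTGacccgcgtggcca
Smpdl3a, chr20:37678754-37679003, plus strand: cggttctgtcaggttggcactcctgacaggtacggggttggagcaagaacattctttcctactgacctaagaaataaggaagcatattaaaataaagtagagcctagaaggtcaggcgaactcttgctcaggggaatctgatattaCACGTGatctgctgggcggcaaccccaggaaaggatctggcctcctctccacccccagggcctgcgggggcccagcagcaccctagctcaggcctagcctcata
Npc2, chr6:110149246-110149495, minus strand: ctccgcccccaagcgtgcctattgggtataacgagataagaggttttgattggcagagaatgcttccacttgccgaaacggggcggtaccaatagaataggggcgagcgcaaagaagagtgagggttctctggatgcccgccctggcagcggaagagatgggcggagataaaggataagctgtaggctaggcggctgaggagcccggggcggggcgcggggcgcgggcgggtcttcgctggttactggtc
Ctsl, chr17:769854-770103, plus strand: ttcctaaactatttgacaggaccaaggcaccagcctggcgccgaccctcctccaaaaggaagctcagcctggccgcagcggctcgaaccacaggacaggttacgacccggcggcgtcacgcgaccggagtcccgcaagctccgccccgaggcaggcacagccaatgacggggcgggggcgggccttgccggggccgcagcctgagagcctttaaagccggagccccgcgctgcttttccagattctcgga
A RefSeq promoter was found for 14 of the 21 called genes. CACGTG was in 2 of these 14, Slc31a2 (its first base at -19 from the start) and Smpdl3a (-104), while 5.59% of the 33469 promoter windows of this length in the table held it. TGAGTCA, the AP-1 element, searched on both strands, was in 0 of the 14 and in 4.05% of all windows. The counts of 14 are of genes with the letters in any of their windows, and Apoe and Fcgr2a had several. The percentages are of single windows, so the units differ. These matches describe the letters in the window and are not binding sites.

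Among chemokine genes, Ccl7 fell. Ccl7, which encodes a chemokine that attracts monocytes, lies at 69423086 to 69424979 on the plus strand of chromosome 10 (rn6, as the table gives it). Ccl7 stood at 6.53, 2.82, 3.88 and 11 normalised CPM (each gene's reads as a share of the TMM-adjusted library total) in osteoarthritic replicates 1 to 4 and at 1.78, 0.478, 1.22 and 0.527 in coacervate replicates 1 to 4. Every coacervate library was below every osteoarthritic library. Ccl7 fell by 2.59 on the log2 scale (SE 0.473, adjusted p = 0.0497, edgeR), or 6.03-fold, and it rested on few reads, 24 to 90 counts per coacervate library and 114 to 505 per osteoarthritic library. Low even counts were commoner than odd ones in the table, so both mates of a fragment may have been counted, and the independent fragments may be fewer than these counts. Its change was -3.12 without osteoarthritic replicates 2 and 3.

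Ccl2, another chemokine that attracts monocytes, had 21, 13.1, 12.2 and 33.5 normalised CPM in the osteoarthritic libraries and 4.18, 2.85, 6.34 and 1.8 in the coacervate libraries. The groups did not overlap, but Ccl2 did not pass (log2 fold change -2.40, SE 0.472, edgeR adjusted p = 0.0635). Of 25 tested genes for chemokines and their receptors, 1 passed (Ccl7), against 0.126% called lower over all genes. In this list 4 had groups that did not overlap with coacervate lower (16%, against 3.13% of all tested genes). The median log2 fold change was -0.49 (-0.40 without osteoarthritic replicates 2 and 3). Cxcl9 at -1 and Cxcl1 at -0.81 did not pass, nor did Cxcl13, which went the other way at 1.16. Of the 25 genes, 20 had a negative and 5 a positive log2 fold change. The inflammatory cytokine list had 0 called members of 29 and a median of -0.06 (-0.19 without those replicates). Il1b, the inflammatory cytokine gene, had 10.8, 25.1, 27.4 and 20.4 normalised CPM in osteoarthritic libraries and 18.6, 9.65, 9.08 and 10.3 in coacervate libraries, so the groups overlapped (log2 fold change -0.81, edgeR adjusted p = 0.18, and -0.38 without those replicates). Il1rn, the antagonist of the interleukin-1 receptor, had a log2 fold change of -1.05 (edgeR adjusted p = 0.076) and was chosen after its values were seen.

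Among lipid-handling genes, Apoe and Fabp5 fell. Apoe encodes apolipoprotein E, which carries cholesterol and is abundant in lipid-laden macrophages, and it lies at 80612895 to 80617057 on the minus strand of chromosome 1. Apoe stood at 1349, 1263, 1393 and 2648 normalised CPM in osteoarthritic replicates 1 to 4 and at 391, 462, 563 and 272 in coacervate replicates 1 to 4. The lowest osteoarthritic library lay far above the highest coacervate library. Apoe fell by 1.98 on the log2 scale (SE 0.357, adjusted p = 0.0497, edgeR), or 3.94-fold, and its change was -2.24 without osteoarthritic replicates 2 and 3.

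Fabp5, a fatty acid binding protein, had 42.6, 61.6, 63.8 and 62.5 normalised CPM in osteoarthritic libraries and 34.5, 23.0, 21.9 and 21.9 in coacervate libraries. Coacervate replicate 1 and osteoarthritic replicate 1 were the nearest to each other, and the groups did not overlap. Fabp5 fell by 1.19 on the log2 scale (SE 0.21, adjusted p = 0.0497, edgeR), and its change was -1.05 without osteoarthritic replicates 2 and 3. Of 20 tested lipid-handling macrophage genes, 2 passed (Apoe, Fabp5), against 0.126% called lower over all genes, 7 had non-overlapping lower groups (35%, against 3.13%), 16 had a negative log2 fold change, and the median was -0.60 (-0.42 without osteoarthritic replicates 2 and 3). Trem2, a receptor for lipids on macrophages, had 20.9, 16.6, 23.8 and 25.2 normalised CPM in osteoarthritic libraries and 7.52, 8.85, 12.2 and 5.69 in coacervate libraries, and did not pass (log2 fold change -1.33, edgeR adjusted p = 0.0924). Gpnmb (-1.31) and Spp1 (-0.94) did not pass either. The 4 members with a positive log2 fold change were Axl (0.50), Lpl (0.37), Cd5l (0.19) and Abcg1 (0.11), none of which passed. Gpnmb, Spp1 and these 4 were named after their values were seen. Among 25 genes of cholesterol and sterol handling, Apoe and Npc2 passed, against 0.126% called lower over all genes, and both are also counted in other lists. The median of the sterol list was -0.08 (-0.23 without those replicates).

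Among Fc receptor and lectin genes of myeloid cells, Fcgr2a and Clec4a2 fell. Fcgr2a encodes a receptor for immunoglobulin G and lies at 91146876 to 91228935 on the minus strand of chromosome 13. Fcgr2a had 134, 201, 187 and 187 normalised CPM in osteoarthritic libraries and 88.5, 100, 70.8 and 77.0 in coacervate libraries. All coacervate values lay below the lowest osteoarthritic value. Fcgr2a fell by 1.07 on the log2 scale (SE 0.171, adjusted p = 0.0497, edgeR), or 2.1-fold, and its change was -0.92 without osteoarthritic replicates 2 and 3. The gene LOC108348047, which the table describes as a low affinity Fc receptor, lies inside Fcgr2a on the same strand. It fell by 0.91 (-0.84 without those replicates). Reads may be shared by this overlapping pair, so their calls may not be independent, and the overlap of exons was not examined.

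Clec4a2, a C-type lectin receptor, had 6.26, 10.4, 10.5 and 10.1 normalised CPM in osteoarthritic libraries and 5.50, 4.19, 3.94 and 4.27 in coacervate libraries. Osteoarthritic replicate 1 was low and coacervate replicate 1 was high within its group, and the groups did not overlap. Clec4a2 fell by 1.06 on the log2 scale (SE 0.179, adjusted p = 0.0497, edgeR), or by 0.87 without osteoarthritic replicates 2 and 3. Cd300le, a CD300 family receptor, had 28.7, 39.0, 45.5 and 49.1 normalised CPM in osteoarthritic libraries and 21.5, 19.8, 20.6 and 21.1 in coacervate libraries, a narrow range in the treated group. Cd300le fell by 0.97 on the log2 scale (SE 0.167, adjusted p = 0.0497, edgeR), or by 0.90 without those replicates. RGD1559482, described in the table as similar to an immunoglobulin superfamily gene and overlapping Cd300c2 on the same strand, fell by 1.14 with and without them. Of 22 tested Fc receptor and lectin genes, 2 passed, against 0.126% called lower over all genes. In the same list 7 (31.8%, against 3.13%) had non-overlapping lower groups and the median log2 fold change was -0.65 (-0.44 without osteoarthritic replicates 2 and 3).

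Of 21 tested markers of macrophages and monocytes 0 passed, 1 had non-overlapping lower groups (4.76%, against 3.13% of all genes), and the median log2 fold change was -0.13 with all libraries and without osteoarthritic replicates 2 and 3. Members went both ways, 15 negative and 6 positive with all libraries. Folr2 was at -0.86, Cd14 at -0.81 and Spi1 at -0.62, while Vsig4 was at 1.06 and Lyve1 at 0.69, all named after their values were seen. Csf1r, the receptor for the macrophage growth factor, had 345, 173, 181 and 314 normalised CPM in osteoarthritic libraries and 235, 250, 231 and 248 in coacervate libraries, so the coacervate values lay inside the osteoarthritic range, and its log2 fold change was -0.45 without those replicates. Cd68, a lysosomal membrane protein of macrophages, had a log2 fold change of -0.33 (edgeR adjusted p = 0.336) and -0.70 without them. The summed level of the 22 markers in the table was 7204 to 12870 normalised CPM in osteoarthritic libraries and 5467 to 7161 in coacervate libraries, and Marco was at 0 in all 8. Most of that sum was Lyz2, a lysozyme gene that is also in the neutrophil list. Without Lyz2 the other 21 markers summed to 1519 to 1809 in osteoarthritic and 1493 to 1539 in coacervate libraries, which overlapped. The part of macrophage number in the called genes was not tested.

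**Figure D2:**
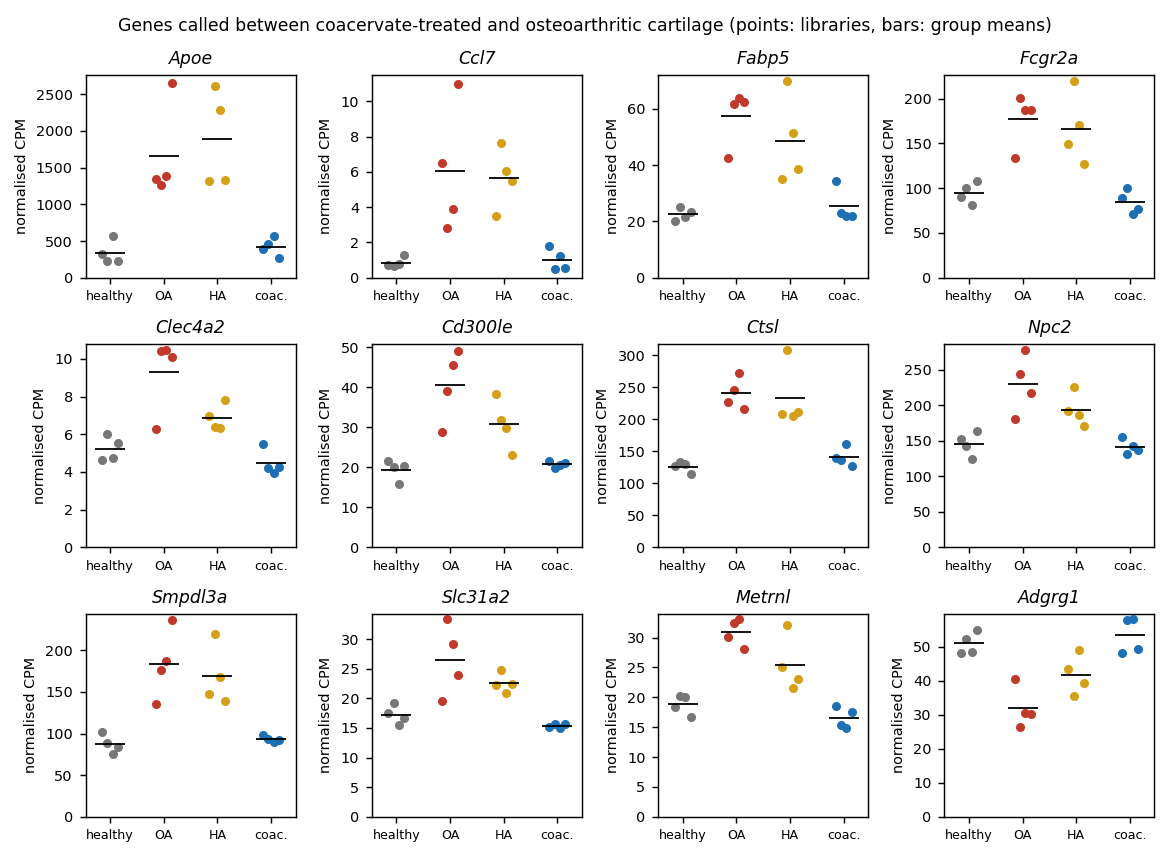
Normalised CPM (y axis, starting at 0) of 12 called genes in every library, by group on the x axis (healthy, untreated osteoarthritic as OA, HA and coacervate). Points are libraries and bars are group means. All 4 coacervate points lie below all 4 osteoarthritic points for 11 genes, and above them for Adgrg1.

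Among lysosomal genes, Ctsl and Npc2 fell. Ctsl encodes cathepsin L, a lysosomal protease, and lies at 1872848 to 1879279 on the minus strand of chromosome 17 (rn6). The promoter matched to it by symbol above is on the plus strand in GRCr8, and this difference was not examined. Ctsl had 227, 247, 273 and 217 normalised CPM in osteoarthritic libraries and 139, 137, 162 and 127 in coacervate libraries. The groups were well separated, with the highest coacervate library at 162 and the lowest osteoarthritic library at 217. Ctsl fell by 0.77 on the log2 scale (SE 0.132, adjusted p = 0.0497, edgeR), or 1.71-fold, and its change was -0.65 without osteoarthritic replicates 2 and 3.

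Npc2, which carries cholesterol out of lysosomes, had 181, 244, 279 and 218 normalised CPM in osteoarthritic libraries and 155, 132, 142 and 137 in coacervate libraries. Npc2 fell by 0.70 on the log2 scale (SE 0.131, adjusted p = 0.0497, edgeR), and its change was -0.49 without osteoarthritic replicates 2 and 3. Smpdl3a, a phosphodiesterase related to acid sphingomyelinase whose promoter is shown above, had 136, 177, 188 and 236 normalised CPM in osteoarthritic libraries and 97.8, 93.6, 90.4 and 92.6 in coacervate libraries. The treated libraries were again close to each other. Smpdl3a fell by 0.98 on the log2 scale (SE 0.162, adjusted p = 0.0497, edgeR), or by 0.99 without those replicates. The lysosomal peptidase gene Dpp7 fell by 0.56 and the chitobiase gene Ctbs fell by 0.64, both named after their values were seen, and their changes were -0.59 and -0.45 without those replicates. Ctbs overlaps Spata1 on the opposite strand, and the strand setting of the counting is not given in the sources used here.

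The list of lysosomal proteases and hydrolases also holds the sterol carrier Npc2. Of its 43 tested genes, 2 passed (Ctsl, Npc2), against 0.126% called lower over all genes. In that list 12 (27.9%, against 3.13% of all genes) had non-overlapping lower groups, 37 had a negative log2 fold change, and the median was -0.21. The 12 included Ctss (-0.61) and Ctsd (-0.55), neither of which passed. Of 33 genes of the lysosomal membrane and its proton pump, 0 passed, 8 (24.2%) had non-overlapping lower groups and the median was -0.21. Both medians were little changed without osteoarthritic replicates 2 and 3, at -0.27 and -0.21.

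Slc31a2, a transporter in the copper family, had 19.6, 33.4, 29.2 and 24.0 normalised CPM in osteoarthritic libraries and 15.1, 15.7, 15.0 and 15.6 in coacervate libraries. Slc31a2 fell by 0.79 on the log2 scale (SE 0.137, adjusted p = 0.0497, edgeR), and its change was -0.50 without osteoarthritic replicates 2 and 3. Of 27 tested copper and metallothionein genes it was the 1 that passed, against 0.126% called lower over all genes. The list median was -0.20 (-0.14 without those replicates). Metrnl, a secreted protein, had 30.1, 32.4, 33.1 and 28.1 normalised CPM in osteoarthritic libraries and 18.5, 15.4, 14.8 and 17.5 in coacervate libraries. Metrnl fell by 0.90 on the log2 scale (SE 0.127, adjusted p = 0.0421, edgeR), or by 0.81 without them. Arl11, a small GTPase of the ARF-like family, fell by 0.99, and Nudt18 fell by 0.69, with changes of -0.69 and -0.51 without them. Cdc42ep5, an effector of the GTPase Cdc42, fell by 1.12 on the log2 scale (-0.95 without them) and, with the same limit as Ccl7, rested on 55 to 65 counts in each coacervate library and 87 to 153 in each osteoarthritic library.

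Among genes higher after coacervate treatment, Adgrg1 encodes an adhesion G protein-coupled receptor and lies at 10423501 to 10460674 on the minus strand of chromosome 19. Adgrg1 had 40.6, 26.5, 30.6 and 30.2 normalised CPM in osteoarthritic libraries and 48.2, 58.0, 58.2 and 49.5 in coacervate libraries. Osteoarthritic replicate 1 was the nearest to the coacervate group, which it did not reach. Adgrg1 rose by 0.74 on the log2 scale (SE 0.132, adjusted p = 0.0497, edgeR), or 1.67-fold, and its change was 0.59 without osteoarthritic replicates 2 and 3. Igfn1, a muscle protein with immunoglobulin and fibronectin domains, had 9.49, 2.77, 5.61 and 5.16 normalised CPM in osteoarthritic libraries and 16.8, 34.5, 64.6 and 12.2 in coacervate libraries, and rose by 2.47 (SE 0.456, adjusted p = 0.0497, edgeR). Its change was 1.88 without coacervate replicate 3 and 2.13 without osteoarthritic replicates 2 and 3. AABR07046707.1, an unnamed gene, rose by 0.69, or by 0.54 without the latter pair.

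Skeletal muscle genes, none of which passed, took their largest share of counts in the libraries where Igfn1 was highest. The share of counts from 27 muscle genes was 0.832%, 1.4%, 2.74% and 0.816% in coacervate replicates 1 to 4 and 0.887%, 0.445%, 0.598% and 0.62% in osteoarthritic replicates 1 to 4. Coacervate replicate 3 was highest in both. The difference in mean share had an exact permutation p = 0.0857, adjusted p = 0.171 over 4 shares, two-sided, where the smallest p possible was 0.0286. Of 27 muscle genes 0 passed, 27 had a positive log2 fold change and the median was 0.89, or 0.48 without coacervate replicate 3 and 1.04 without osteoarthritic replicates 2 and 3. The part of muscle in the Igfn1 result was not tested.

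**Figure D3:**
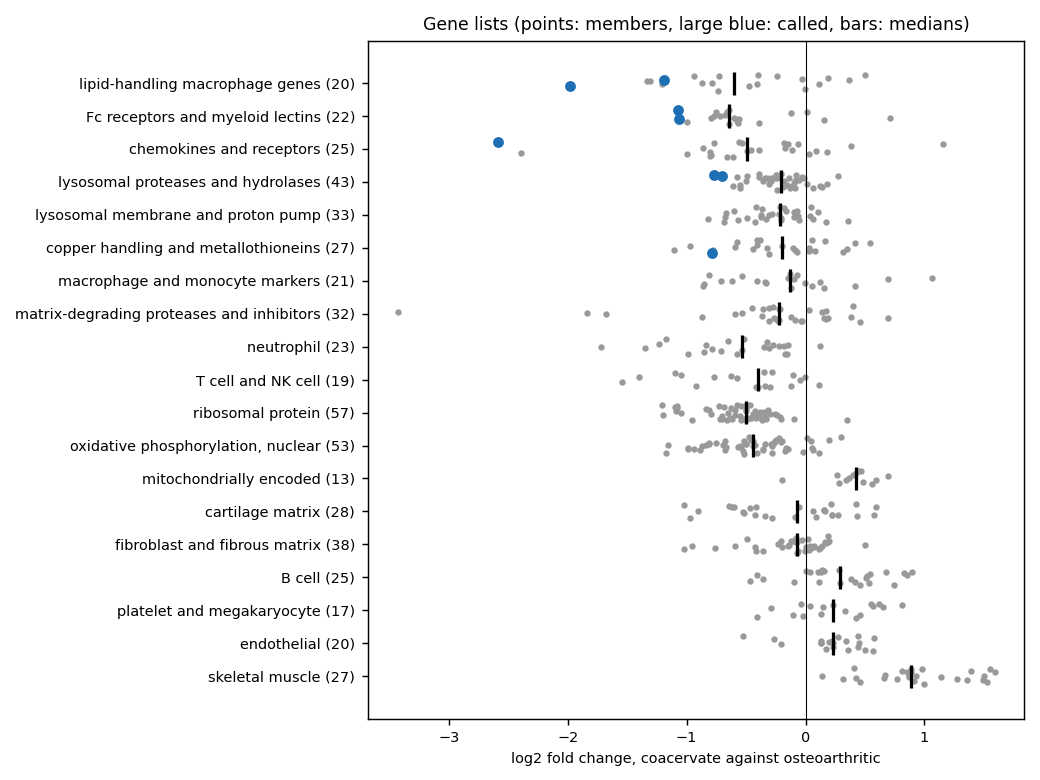
Log2 fold change (x axis, coacervate against osteoarthritic) of the tested members of 19 gene lists, with the number of members in brackets. Small points are members, large blue points are members that passed and bars are list medians. The lipid-handling list has its median at -0.60 and the muscle list at 0.89.

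Cartilage matrix genes showed no called member. Of 28 tested genes 0 passed and the median was -0.07, or -0.27 without osteoarthritic replicates 2 and 3. Col2a1, the main cartilage collagen, had 2804, 1090, 1234 and 2715 normalised CPM in osteoarthritic libraries and 2139, 1387, 1134 and 1793 in coacervate libraries, with overlap and a log2 fold change of -0.28. Acan, the main proteoglycan, had a log2 fold change of -0.09, Prg4, the lubricant of the joint surface, 0.22, and Comp 0.22. Sox9, the chondrocyte transcription factor, was at 0.58 (edgeR adjusted p = 0.31) and Col10a1, of hypertrophic chondrocytes, at -0.75 (0.342). Osteoarthritic replicates 2 and 3 were low for several of them. Acan stood at 80.1 and 102 normalised CPM there and at 279 and 296 in osteoarthritic replicates 1 and 4. Without replicates 2 and 3 the log2 fold change was -0.69 for Acan, -0.33 for Prg4, -0.78 for Col2a1 and 0.10 for Sox9, while limma on log2(FPKM + 1) gave 0.21 for Acan. Col1a1, the main collagen of bone and fibrous tissue, was at 0.04 with all libraries and at -0.51 without those replicates.

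The list of matrix proteases, which cut collagen and proteoglycan, also holds their inhibitors, such as Timp1. In this list 0 of 32 tested members passed, and the median was -0.22. It was -0.49 without osteoarthritic replicates 2 and 3, with 28 of 32 negative, and -0.62 without coacervate replicate 3 as well. Mmp3 had 63.0, 21.3, 41.5 and 137 normalised CPM in osteoarthritic libraries and 17.8, 18.3, 29.4 and 8.22 in coacervate libraries. The groups overlapped, and Mmp3 did not pass (log2 fold change -1.84, edgeR adjusted p = 0.137). Mmp10 was at -1.68 and Mmp12 at -0.59, neither past the threshold. Mmp13, the collagenase of osteoarthritic cartilage, was at -0.03 and Adamts5, an aggrecanase, at -0.21 (-0.66 without osteoarthritic replicates 2 and 3). Timp1, an inhibitor of matrix proteases, was at -0.87 (edgeR adjusted p = 0.0822) and was chosen after its values were seen.

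Several lists of blood cells and RNA make-up had medians that moved when osteoarthritic replicates 2 and 3 were left out. Shares of counts from haemoglobin (exact permutation p = 0.543, adjusted p = 0.543) and ribosomal protein genes (exact permutation p = 0.343, adjusted p = 0.457, both two-sided) had differences between groups that did not pass. Neutrophil genes had 0 called members of 23 and a median of -0.53, or -0.28 without osteoarthritic replicates 2 and 3. S100a8 was 938, 5718, 3637 and 1180 normalised CPM in osteoarthritic replicates 1 to 4 and 706 to 1085 in the coacervate group, high in replicates 2 and 3 only. Its log2 fold change was -1.72 with all libraries (edgeR adjusted p = 0.0924) and -0.28 without those replicates. Ribosomal protein genes had a median of -0.50 over 57 members with 0 called, and 0.25 without those replicates, and nuclear oxidative phosphorylation genes -0.44 over 53 with 0 called and 0.21 without them. Antioxidant genes likewise went from -0.31 to 0.08. The part of these libraries in the list medians was not tested separately from the difference between groups.

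Mitochondrially encoded genes took 4.16% to 5.33% of counts in coacervate libraries and 2.42% to 4.27% in osteoarthritic libraries (exact permutation p = 0.0857, adjusted p = 0.171, two-sided). Of their 13 members 0 were called, and 5 (38.5%, against 2.47% of all tested genes) had non-overlapping groups with coacervate higher. The median was 0.43, or 0.25 without osteoarthritic replicates 2 and 3. Platelet genes had a median of 0.23 (0.38 without them), B cell genes 0.29 (0.48) and T and NK cell genes -0.40 (-0.23), with 0 called in each. Groups did not overlap, with coacervate higher, for 4 of 17 platelet genes (23.5%) and 2 of 25 B cell genes (8%). For T and NK cell genes 2 of 19 (10.5%, against 3.13% of all genes) had non-overlapping lower groups. Endothelial genes, with 0 called, went from 0.23 to 0.07, and to -0.05 without coacervate replicate 3 as well.

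The remaining lists had 0 called members. Annexins, which bind membranes in the presence of calcium, had a median of -0.26 over 9 members, of which 9 were negative, and -0.27 with 7 negative without osteoarthritic replicates 2 and 3. Osteoclast genes stood at -0.32 (-0.52 without them), genes of protein processing in the endoplasmic reticulum at -0.18 (-0.17) and hypertrophic chondrocyte genes at -0.15 (-0.28). MHC class II genes went from -0.27 to -0.03, with 9 of 17 negative. Medians were between -0.1 and 0.05 for complement, osteoblast, fibroblast, tendon, adipocyte, Wnt, interferon, senescence and glycolysis genes. Without osteoarthritic replicates 2 and 3 the fibroblast median was -0.46, with 35 of 38 negative, and those of osteoblast (-0.26), complement (-0.25), tendon (-0.25), Wnt (-0.15), adipocyte (0.20) and interferon (0.14) genes also lay outside that range. Medians for erythroid (0.14), stromal (0.12), TGF-beta and BMP (0.12), immediate early (0.12), circadian clock (0.19) and cell cycle (0.14) genes were above 0. Those of the stromal (-0.10), TGF-beta and BMP (-0.03) and circadian clock (-0.11) lists turned negative without the same replicates, and those of the immediate early (-0.09) and clock (-0.06) lists without coacervate replicate 3. Sik1, a kinase gene induced by cyclic AMP, had 39.6, 30.9, 26.7 and 35.7 normalised CPM in osteoarthritic libraries and 52.6, 41.8, 60.2 and 29.8 in coacervate libraries, with overlap, and did not pass (0.47). Arrdc3, an arrestin family gene, was at 0.54 (edgeR adjusted p = 0.103) and the catalase gene Cat at -0.12.

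**Figure D4:**
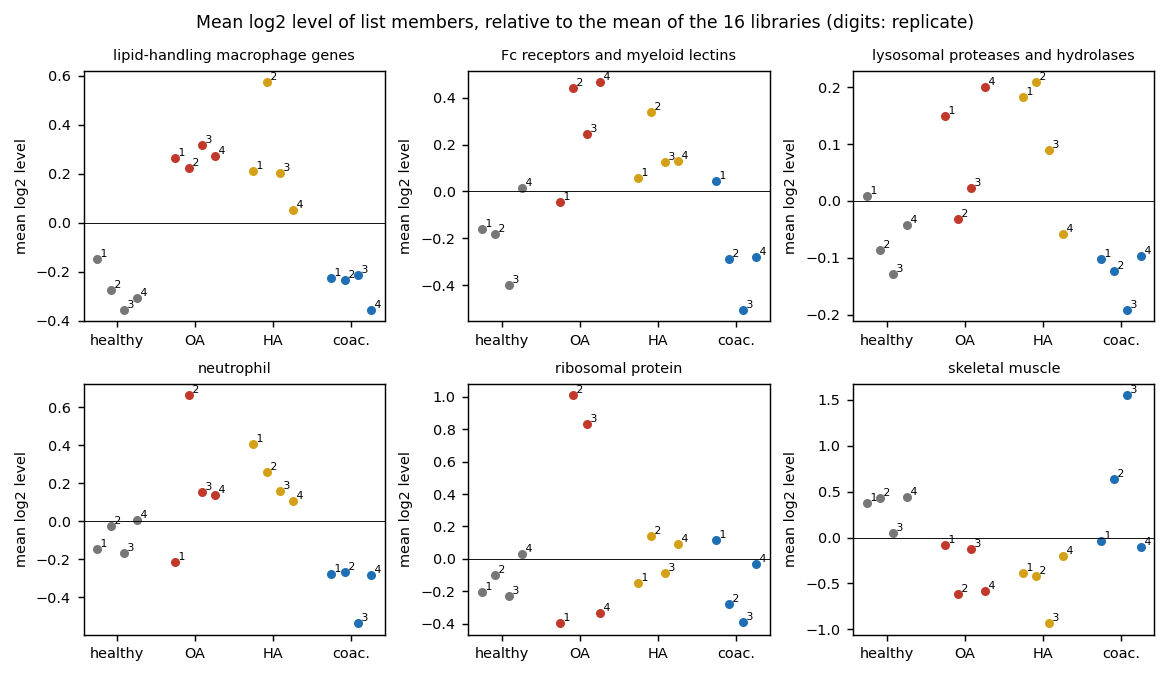
Mean log2 level of 6 gene lists in each of the 16 libraries, relative to the mean of all libraries, with the replicate number beside each point. The y axis differs between panels. For the lipid-handling list, the 4 osteoarthritic libraries lie between 0.22 and 0.32 and the 4 coacervate libraries between -0.36 and -0.21, while osteoarthritic replicates 2 and 3 stand apart for ribosomal protein genes.

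Set against hyaluronic acid, which also came with cells and drug, coacervate treatment gave 0 called genes (0%) in edgeR's quasi-likelihood test. The smallest adjusted p was 0.101, and 1485 genes (10.4%) had an unadjusted p under 0.05. Limma on log2(FPKM + 1) gave 0 and DESeq2 gave 325. Log2 fold changes were -2.16 for Apoe (adjusted p = 0.101), -2.49 for Ccl7, -0.99 for Fcgr2a and -0.73 for Ctsl, and 0.35 for Adgrg1. This comparison shares its coacervate libraries with the main one, so these values are not independent of those above. Apoe had 1313, 2619, 2292 and 1326 normalised CPM in HA libraries, all above the coacervate group. Leaving out osteoarthritic replicates 2 and 3, which enter only through the shared estimate of spread, raised the count to 149. Leaving out HA replicate 4 gave 11 genes, 11 of them lower.

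Against healthy cartilage, coacervate treatment gave 0 called genes (0%) in the same edgeR test. The smallest adjusted p was 0.232, and 552 genes (3.85%) had an unadjusted p under 0.05. Limma gave 0 and DESeq2 15. Apoe had 322, 227, 574 and 222 normalised CPM in healthy libraries, overlapping the coacervate group, and its log2 fold change was 0.33. That of Ccl7 was 0.25 and that of Adgrg1 0.07. A result past no threshold does not show that the groups are alike. Untreated osteoarthritic against healthy cartilage gave 72 called genes (0.502%), 56 higher (0.391%) and 16 lower (0.112%), with log2 fold changes of 2.31 for Apoe (edgeR adjusted p = 0.0115) and -0.67 for Adgrg1 (0.0371). That comparison shares the osteoarthritic libraries with the main one.

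**Figure D5:**
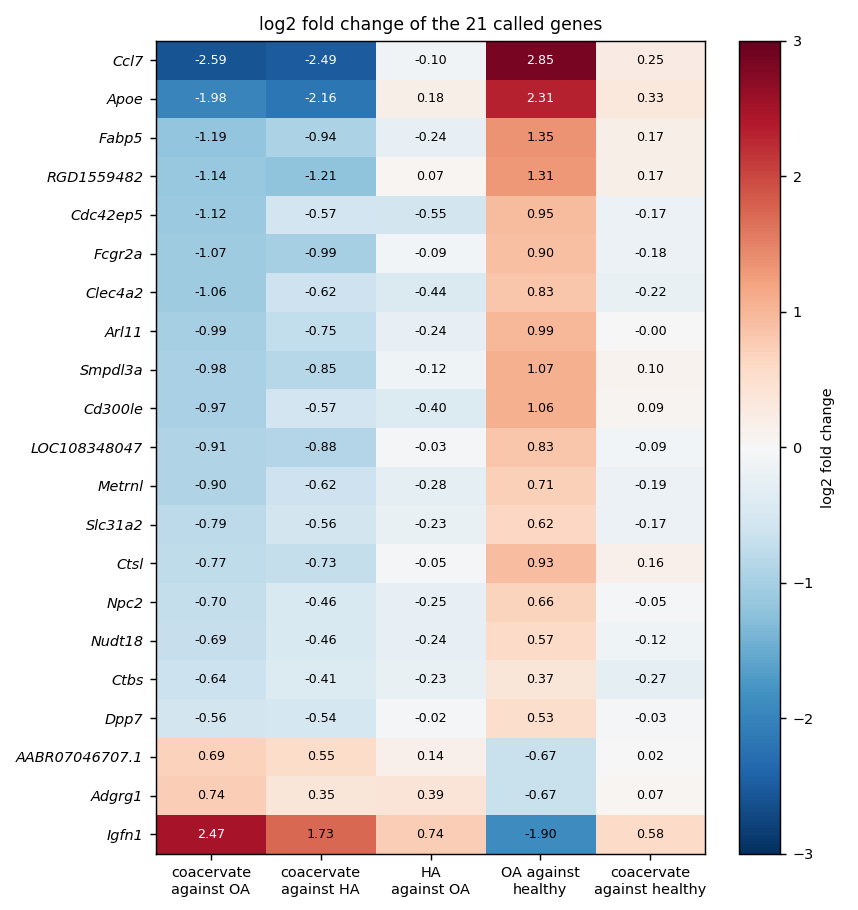
Log2 fold change of the 21 called genes (rows) in 5 comparisons (columns), from blue (lower) to red (higher). The comparisons share libraries, so columns are not independent: the 18 genes called lower ran from -2.59 to -0.56 against untreated osteoarthritic cartilage, which chose them, and from -2.49 to -0.41 against HA.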

How the data were processed

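RNA from rat knee cartilage was sequenced with poly(A) selection and dUTP strand marking, per the labels' protocols. Build rn6, StringTie 2.1.6, HISAT2 2.2.1, cutadapt 1.9, edgeR and DESeq2 are listed in the submitters' processing notes with no roles given. The counting tool and its strand setting are not given in the sources used here. Per the file headers, every gene has 1 count and 1 FPKM in each library. Deposited counts were whole and had unequal totals, hence unnormalised by the authors, and deposited FPKM values carry the authors' scaling to length and depth. Low even counts were commoner than odd ones (6480 values of 2, 4576 of 3). Gene positions are as the table gives them.

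Tested genes (14337) reached 1 FPKM in 4 or more of 16 libraries; they were compared with edgeR 4.0.16 (quasi-likelihood, TMM, 1 fit of 4 group means over 16 libraries) in R 4.3.3, with Benjamini-Hochberg adjustment at 0.05. DESeq2 1.42.0 and limma 3.58.1 served as alternatives. Log2 levels used a prior count of 2. Each SE was derived as the absolute log2 fold change divided by the square root of the F statistic of edgeR's test. The code was tested on simulated data. Replicate libraries differed beyond sampling noise (smallest chi-square per degree of freedom 38.1). Symbols on several rows (1115 genes) were left out of lists. Shares of counts were compared by an exact permutation test over 70 assignments. Figures were drawn with matplotlib 3.10.9 in python 3.11.15.

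The members and the 41 gene lists were chosen with earlier results of these data known. The naming rule took up to 12 rises and 12 falls among called genes with non-overlapping groups and mean FPKM of at least 5, up to 4 called genes per list, and a fixed panel, 33 genes in all. Another 8 called genes (Nudt18, Dpp7, Ctbs, Cdc42ep5, Igfn1, AABR07046707.1, RGD1559482 and LOC108348047) and others said to be so were named after values were seen. The same holds for every other gene outside the rule that is given a log2 fold change, such as S100a8, Ctsd, Ctss and Cxcl9.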

Additional observations from a re-analysis of the deposited data

Results flagged for a closer look

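Of 90 groups of 4 values examined, 5 held a library that lay far from the other members of its group, and chance alone flags about 1 in 20 such groups. Apoe was 2648 normalised CPM in osteoarthritic replicate 4, against 1263 to 1393 in the others. Fabp5 was 34.5 in coacervate replicate 1, against 21.9 to 23.0, and 42.6 in osteoarthritic replicate 1, against 61.6 to 63.8. Clec4a2 was 6.26 in osteoarthritic replicate 1, against 10.1 to 10.5. Il1b was 18.6 in coacervate replicate 1, against 9.08 to 10.3.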

How the results depend on the processing

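The count of 21 genes depended on the setting. It was 797 with DESeq2 (479 lower, 318 higher), 0 without the expression filter, 0 with limma at either pseudocount (1 or 0.1), 0 with only the 8 libraries of both groups, 0 with the replicate block, 3 without osteoarthritic replicates 2 and 3, and 9 when coacervate replicate 3 was left out as well, an alternative added after seeing the data. It ranged from 0 to 2054 when 1 library was left out. DESeq2's size factors in edgeR gave 20, leaving out haemoglobin genes 20 and an FPKM minimum of 5 gave 26. Same-numbered libraries did not deviate together (correlations -0.386 to -0.138, and 0 of 4 coacervate libraries matched their own number best). The main fit used no pairing. With 4 libraries a side, and osteoarthritic replicates 2 and 3 far from the rest, this check cannot exclude that the numbers pair samples. The 21 genes each passed in only 5 to 9 of their 26 or 27 alternatives. Against HA the count of 0 became 325 with DESeq2 and 149 without osteoarthritic replicates 2 and 3, and 0 to 11 leaving out 1 library. Against healthy cartilage it became 15 with DESeq2 and 0 to 1 (Sfrp2, without coacervate replicate 4).

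Direction changed for genes that did not pass. Leaving out 1 library gave -0.11 to 0.56 for Prg4, -0.17 to 0.31 for Col1a1, -0.19 to 0.13 for Mmp13, -0.22 to 0.11 for Csf1r, -0.35 to 0.19 for Acan, -0.39 to 0.064 for Adamts5 and -0.042 to 0.37 for Comp. Without osteoarthritic replicates 2 and 3, Prg4 was -0.33, Col1a1 -0.51 and Cat 0.10. Without coacervate replicate 3 too, Prg4 was -0.67, Col1a1 -0.57, Cat 0.025, Mmp13 0.10 and Comp -0.24. With limma at pseudocounts 1 and 0.1, Mmp13 was 0.0872 and 0.0876, Csf1r 0.11 and 0.11, and Acan 0.21 and 0.23. The cause was not tested. Few counts limit Ccl7 and Cdc42ep5, and intervals for single libraries were not computed.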
